A study of Olea europaea var. sylvestris with 6 samples.

Results

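Among the genes read in stems of wild olive, a small group gave reads in the variety AC18 and none in the variety AC15. The group was chosen from the counts themselves: a gene belonged to it when it had 0 counts in each AC15 library and at least 10 counts in each AC18 library. By this rule 104 of the 50668 genes of the deposited table were members. Because the difference between AC18 and AC15 made the choice, every AC18 to AC15 value of a member is given as a description, with no test. The study compared untreated stems of 2 certified varieties, AC18, which the submitters class as tolerant, and AC15, which they class as susceptible, with 3 biological replicates each, or 6 libraries in all. All plants were Olea europaea var. sylvestris, grown from rooted cuttings on their own roots, 6 to 10 months old and kept for 2 months in a greenhouse, with no treatment in either variety. Each variety is a single clonally propagated genotype, so the values describe these varieties and not tolerant or susceptible olives in general. The libraries held 7892188 to 8589143 counts in AC18 and 7468058 to 8489459 counts in AC15.

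Verticillium wilt is a vascular disease. The soil-borne fungus Verticillium dahliae enters through the roots and spreads upward in the xylem, the water-conducting tissue of the stem, and olive varieties differ widely in how well they withstand it. Genomes of cultivated plants and their wild relatives can differ in the presence of whole genes, and neighbouring genes may be gained, lost or kept silent together. A gene without reads in one variety can therefore be missing there, be present but silent in the sampled tissue, or carry a sequence that no longer matches the reference used for counting. RNA counts alone do not tell these apart. In a bulk stem sample, fewer cells of a type and less RNA per cell cannot be told apart either. The deposited identifiers carry no gene names, and 0 of them were found in the RefSeq table of 47911 olive genes, so what the members encode is not given and the stem identity of the samples could not be checked against marker genes. Names such as Oeu019835.1 are the table's own: a running number followed by a suffix.

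The members were read at low levels in AC18 stems. Levels are given in CPM (a gene's counts as parts per 1e6 of the normalized total of its library), without correction for transcript length, so they order genes by reads and not by molecules. The mean over the AC18 libraries ranged from 1.26 to 19.0 CPM, with a median of 2.61 CPM, and the lower and upper quartiles were 1.96 and 4.29 CPM. In counts, 45 members averaged under 20 per AC18 library, 45 averaged 20 to 50, 11 averaged 50 to 100, and 3 averaged at least 100. A level of 10 CPM or more was reached by 6 members. All members together took 397 ± 10.8 CPM in AC18 (SD, n = 3), or 0.0403% ± 0.00171 of the counts of a library. The 10 members with most reads held 30.3% of the counts of the group.

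**Figure D1:**
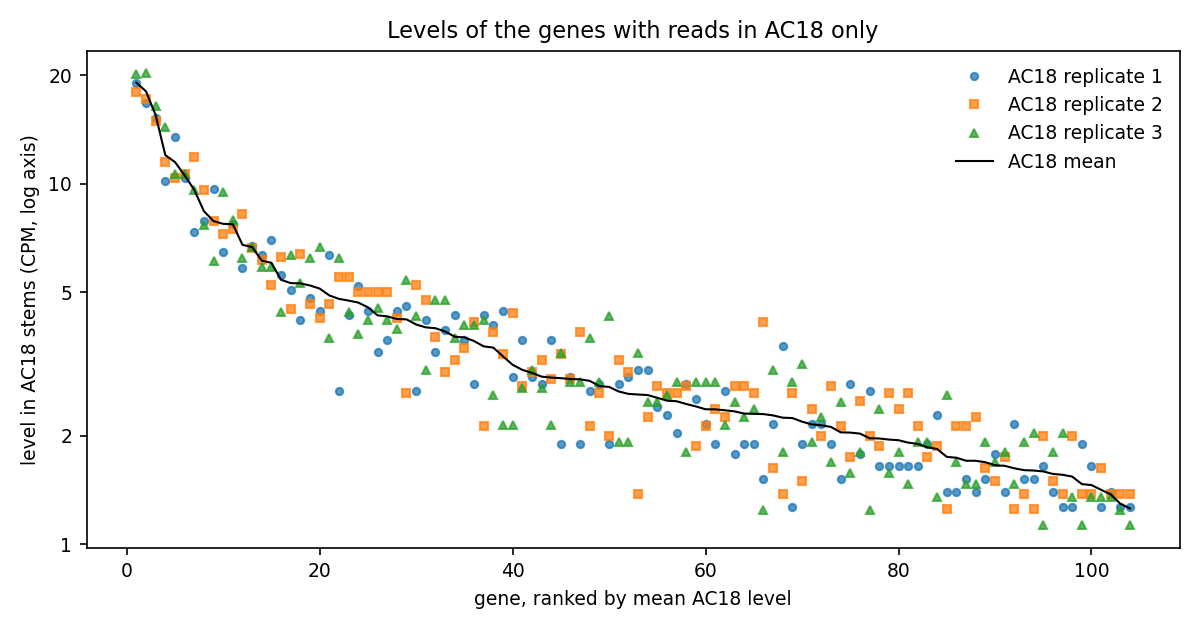
Level of each of the 104 genes in the 3 AC18 libraries (points, CPM on a log axis) and their mean (line), ranked from highest to lowest; every AC15 library had 0 counts for all of them. Mean levels run from 19.0 CPM down to 1.26 CPM, and the points of the 3 libraries spread more widely around the line toward the low end.

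The 3 members with most reads had a higher CPM in every AC18 library than any other member had in any. Oeu019835.1 had 150, 144 and 178 counts in AC18 replicates 1, 2 and 3, or 19.0 ± 1.05 CPM (SD, n = 3). Oeu043575.1 had 132, 137 and 179 counts, or 18.03 ± 1.91 CPM (SD, n = 3). Oeu045297.1 had 120, 119 and 145 counts, or 15.5 ± 0.788 CPM (SD, n = 3). In each of these genes replicate 3 held the highest count, and replicate 3 was also the deepest AC18 library. Oeu030469.1 followed with 80, 92 and 127 counts and 11.997 ± 2.14 CPM. Oeu030858.1 had 106, 83 and 94 counts and 11.5 ± 1.70 CPM, and was highest in replicate 1 instead. Oeu016883.1 had 82, 85 and 94 counts, and its 10.5 ± 0.129 CPM was nearly the same in all 3 libraries (SD, n = 3 for each of these genes). These 6 genes were the members at 10 CPM or more. The next 4 by mean CPM were Oeu035347.1 with 58, 95 and 85 counts, Oeu015713.2 with 62, 77 and 68, Oeu040487.1 with 76, 63 and 54, and Oeu019457.1 with 51, 58 and 84. No single AC18 library was the highest for all of these 10 genes.

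How far the members lie above AC15 is limited by depth. A count of 0 in all 3 AC15 libraries is bounded here at 3 counts summed over them, which corresponds to 0.130 CPM. Against that floor the AC18 mean was 9.65-fold higher for the lowest member, Oeu036798.1, and 146-fold higher for the highest, Oeu019835.1. These folds take the AC18 mean as it stands, without its own counting error. At its AC18 level, a member would have given 28.9 counts over the 3 AC15 libraries together in the case of the lowest and 438 in the case of the highest, with a median of 60.0, where 0 was recorded. Copies made by PCR are not separate molecules, and the floor covers the error of counting in AC15 alone. The members were picked by these same counts, so neither the floor nor the folds are limits with a stated coverage.

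The filter on low counts kept 96 of the 104 members for edgeR's quasi-likelihood test. All 96 were called higher in AC18 at a Benjamini-Hochberg adjusted p under 0.05, where 29.5% of the 24018 genes tested were called in that direction. DESeq2 tested and called all 104, where it called 21.5% of 30051 genes in that direction. The rule used the same contrast, so nothing is read from these counts. The fitted log2 fold changes of the 96 ran from 6.47 to 10.25 with a median of 7.49, against a median of -0.01 over all genes tested. With AC15 at 0 these fitted values depend on a small count that edgeR adds, and the median of the bounded values over all members was 4.32 on the log2 scale. The 8 members that did not pass the filter averaged 10.3 to 18.7 counts per AC18 library. They were Oeu000164.1, Oeu003284.1, Oeu008428.1, Oeu019635.1, Oeu029992.1, Oeu036798.1, Oeu040507.1 and Oeu048646.1, and each had 1 or more libraries at exactly 10 counts.

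The limits of the rule were followed on both sides. Just inside, Oeu036798.1 had 10, 11 and 10 counts in AC18, Oeu000164.1 had 10, 11 and 11, and Oeu048646.1 had 10, 13 and 12. In all, 11 members had a library at exactly 10 counts. Just outside on the AC18 side, 13 genes had no AC15 count and a lowest AC18 count of 9. Those with the highest means were Oeu063560.1 with 9, 16 and 27 counts, Oeu018057.1 with 9, 19 and 22, and Oeu058619.1 with 9, 18 and 13. Replicate 1 was the library below the limit in all 3 of them, but not in all 13. In Oeu006122.1, Oeu024640.1 and Oeu032603.1 it was replicate 2, with 9 counts each.

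Far more strongly read genes lay just outside on the AC15 side. A single AC15 count kept 65 genes with at least 10 counts in every AC18 library out of the group, and 17 of them averaged at least 50 counts in AC18, against 14 members at that level. Oeu045076.2 had 517, 507 and 594 counts in AC18 and 0, 0 and 1 in AC15. Its count ratio of AC18 to AC15, scaled to the normalized library totals, was 1505 with a 95% exact binomial interval of 270 to 59483. The gene was picked by these same counts, so the interval describes the counting error of the pooled libraries and does not hold its 95% coverage. Oeu016939.1 had 365, 419 and 491 counts in AC18 and 0, 1 and 0 in AC15. Oeu050518.1 had 375, 397 and 397 counts in AC18 and 0, 1 and 0 in AC15. Each of these 3 genes thus had more reads in AC18 than the highest member, and the rule of exactly 0 counts leaves out genes that were almost as silent in AC15.

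The class of exactly 0 counts stood above the classes beside it. Among the 22834 genes with at least 10 counts in every AC18 library, 104 had an AC15 sum of 0, 65 had a sum of 1, and 41 had a sum of 2. At each sum from 3 to 15 there were 22 to 42 genes, with a median of 32. The mirrored choice gave the same shape: among the 22048 genes with at least 10 counts in every AC15 library, 46 had an AC18 sum of 0, 27 had a sum of 1, and 18 had a sum of 2. There the classes from 3 to 15 held 10 to 22 genes, with a median of 17. The 0 class was thus the fullest in both directions among sums of 0 to 15. It is a description of the counts, and no test was run on it.

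**Figure D2:**
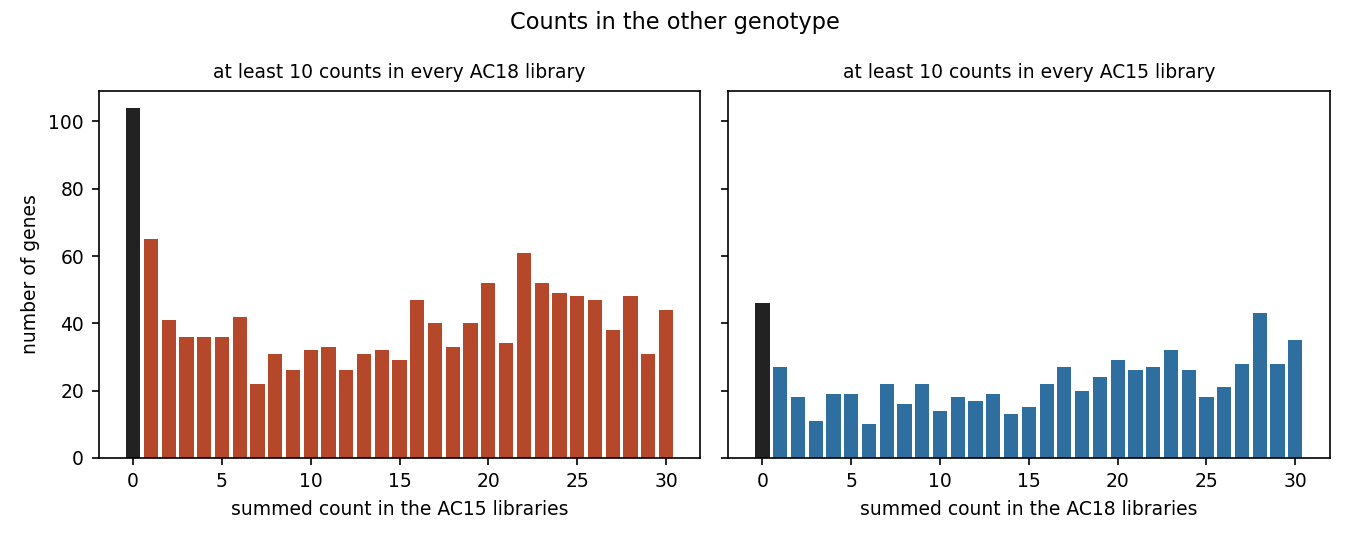
Number of genes at each summed count in the other genotype, for genes with at least 10 counts in every AC18 library (left, summed AC15 count) and in every AC15 library (right, summed AC18 count). The black bars are the genes with no count, 104 on the left and 46 on the right; both stand above the bars at sums of 1 to 15.

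The members thinned out with the number of AC18 reads. Of the genes with at least 10 counts in every AC18 library, those averaging 10 to 20 counts had no AC15 count in 45 of 1544 cases (2.91%). At 20 to 50 counts the share was 45 of 4192 (1.07%), at 50 to 100 counts it was 11 of 4070 (0.270%), and at 100 counts or more it was 3 of 13028 (0.0230%). A lower level makes a count of 0 easier to reach, and how much of this decline follows from that was not tested.

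Libraries that had taken no part in the choice gave a check on the replicates. The AC18 side was examined by choosing genes from 2 AC18 libraries and the 3 AC15 libraries, and reading the library held out. Without AC18 replicate 1 the choice gave 118 genes, of which 104 (88.1%) had at least 10 counts in it. Without replicate 2 it gave 116 genes, and 104 of them (89.7%) had at least 10 counts in that library. Without replicate 3 it gave 108 genes, and 104 of them (96.3%) reached that limit. No gene chosen in this way was at 0 in the held-out AC18 library. The lowest counts were 4 for Oeu054020.1 in replicate 1, where replicates 2 and 3 had 15 and 15, and 4 for Oeu011532.1 in replicate 2, where replicates 1 and 3 had 10 and 10. The held-out count was within 2-fold of the count expected from the other AC18 libraries for 109 of 118, 112 of 116 and 103 of 108 genes when replicates 1, 2 and 3 were held out. The 104 genes were the group itself each time, since reaching 10 counts in the held-out library completes the rule. Every gene chosen was thus read in the AC18 library not used to find it. How often other genes with 10 counts in 2 AC18 libraries reach 10 in the third was not counted, so the shares are descriptions.

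The AC15 side was less exact, because a single read is enough to break a count of 0. Genes with at least 10 counts in every AC18 library and 0 in AC15 replicates 2 and 3 numbered 135, and 104 of them (77.0%) were also at 0 in replicate 1. Of the 131 genes chosen without AC15 replicate 2, 104 (79.4%) were at 0 in it. Of the 130 chosen without replicate 3, 104 (80.0%) were at 0 in it. The 104 genes were again the group itself. Among the other genes with at least 10 counts in every AC18 library, 0.432%, 0.458% and 0.484% were at 0 in AC15 replicates 1, 2 and 3. These other genes leave out those chosen, so each had a count in at least 1 of the AC15 libraries not held out. Genes at 0 in both of those libraries are thus missing from the shares. The shares are also not matched for level. Of the 22834 genes with at least 10 counts in every AC18 library, 13028 averaged 100 AC18 counts or more, but only 3 members did. The chosen genes that were not at 0 mostly had a single count: 27 had 1 and 4 had more in replicate 1, 19 had 1 and 8 had more in replicate 2, and 19 had 1 and 7 had more in replicate 3. The highest such counts were 4, 6 and 3 in replicates 1, 2 and 3. None of these genes reached 10 counts in the held-out AC15 library.

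**Figure D3:**
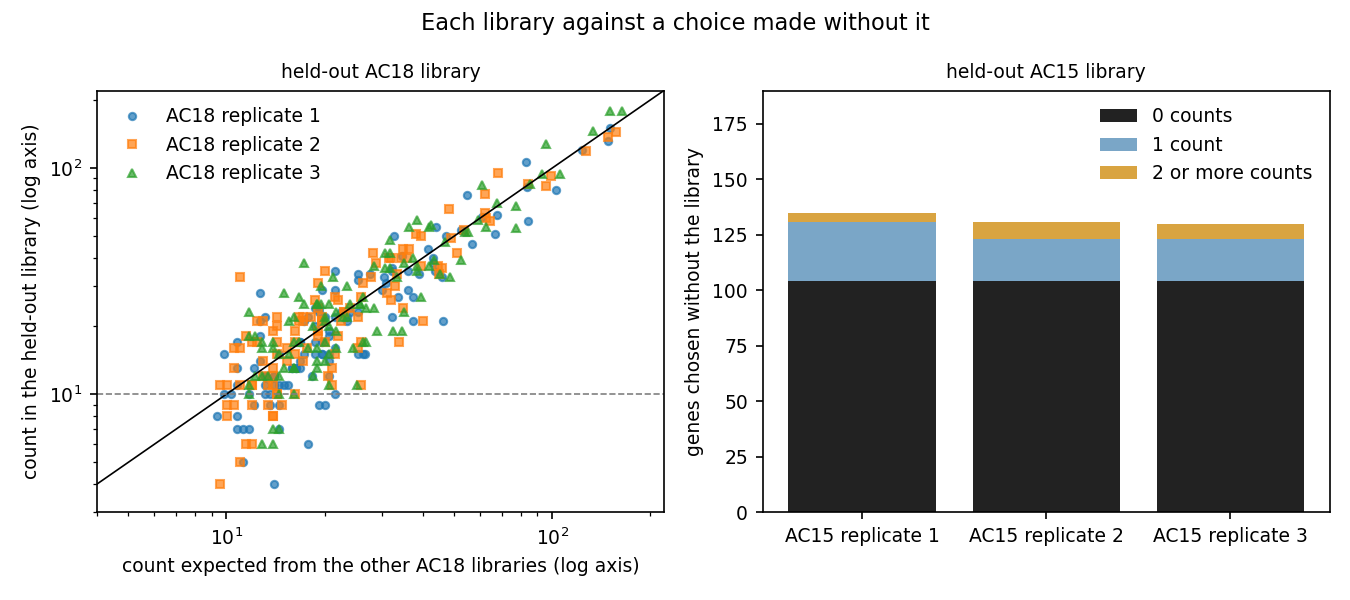
Left: for genes chosen without 1 AC18 library, the count in that library against the count expected from the other AC18 libraries, both on log axes, with the line of equality and a dashed line at 10 counts. Right: for genes chosen without 1 AC15 library, the number with 0, 1, or 2 or more counts in it. No point on the left is at 0, and the black part of each bar on the right is the group of 104 genes itself.

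Within AC18 the replicates of the members spread, on average, somewhat more than counting noise alone. The SD over the AC18 libraries was 19.3% of the mean CPM for the median member, with quartiles of 12.5% and 26.7%. The highest and the lowest AC18 library differed by less than 2-fold for 90 members (86.5%) and by less than 1.5-fold for 58 (55.8%). For the 12688 other genes with at least 10 counts in every AC18 library and a mean in the same range, the shares were 97.1% and 80.3%. The variance divided by that of counting noise alone averaged 1.38 over the members, where 1 would mean counting noise, and 1.26 over the other genes. The medians were 0.968 and 0.833. This ratio is skewed, so its median is not set against 1. It ran as high as 9.12 for Oeu033921.1 and was 0.00237 for Oeu052686.1, so the average does not describe every member. By mean count, the members' median ratio was 0.672 at 10 to 20, 1.22 at 20 to 50, 2.01 at 50 to 100 and 0.489 at 100 or more. The median of those other genes was 56.7 counts per library, against 21.5 for the members, so spreads are better set side by side by level. At 10 to 20 counts the median SD was 21.1% of the mean for members and 19.2% for the others. At 20 to 50 counts the values were 20.2% for members and 16.2% for the others, and at 50 to 100 counts 14.9% for the 11 members and 11.03% for the others. At 100 counts or more the order was the other way, with 5.53% for the 3 members and 8.64% for the others. The rule holds the lowest library at 10 counts or more, so these spreads are descriptions. Across the 104 members, Pearson's r between the log2 CPM of paired AC18 libraries was 0.852 to 0.870, over genes that share those libraries.

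The steadiest members differed little between libraries. Oeu039185.1 had 53, 53 and 59 counts in AC18 replicates 1, 2 and 3, and its SD was 0.721% of its mean of 6.67 CPM. Oeu016883.1, described above, had an SD of 1.22% of its mean, and Oeu052686.1 with 11, 11 and 12 counts had 1.44%. These values are well below counting noise for genes with so few reads and mark the low end of 104 spreads. At the other end, Oeu033921.1 had 12, 33 and 11 counts and an SD of 69.2% of its mean. Oeu016830.1 had 28, 11 and 16 counts (51.3%), and Oeu063760.1 had 15, 16 and 38 counts (49.5%). The high library was replicate 2, replicate 1 and replicate 3 in these genes, so no single AC18 library accounted for the wide spreads.

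No AC18 library carried the group. The members' summed level was 385, 403 and 404 CPM in AC18 replicates 1, 2 and 3, and their median level was 2.66, 2.75 and 2.77 CPM. Replicate 1 was the highest library for 27 members, replicate 2 for 39 and replicate 3 for 38. Replicate 1 was the lowest for 39 members, replicate 2 for 30 and replicate 3 for 35.

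The mirrored group of 46 genes, with reads in AC15 and none in AC18, was read at a similar depth. The same limit of 10 counts per library set the lowest level of both groups. How much of the likeness follows from that limit was not tested. The median level was 2.61 CPM for the members in AC18 and 2.83 CPM for the mirrored group in AC15. A level of 10 CPM was reached by 6 members (5.77%) and by 3 genes of the mirrored group (6.52%). The median SD was 19.3% of the mean for the members in AC18 and 19.95% for the mirrored group in AC15. Genes read in both genotypes but at different levels were another matter. With at least 10 counts in all 6 libraries, an edgeR adjusted p under 0.05 and a fitted difference of at least 4-fold, 294 genes were higher in AC18. Their median AC18 level was 28.8 CPM, and 93.2% of them reached 10 CPM. A limit of 10 counts in AC15 together with a 4-fold difference sets a floor under the AC18 level, and the lowest of these genes was at 6.64 CPM. How much of the higher median follows from that floor was not tested, and these values carry no test.

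The suffix of the identifier was 1 for 94 members (90.4%), 2 for 6, 3 for 3 and 4 for 1. In the whole table it was 1 for 90.5% of the genes, and among the genes tested for 83.7%.

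The members were scattered over the whole range of identifier numbers. They ran from number 164 to number 64843, in a table that runs from 1 to 64910. The median step from one member to the next was 416 numbers, the smallest 2 and the largest 4020, between Oeu048666.1 and Oeu052686.1. Per 10000 numbers there were 7 to 23 members, or 0.330% to 0.630% of the genes with at least 10 counts in every AC18 library. The share was highest from 10000 to 19999, with 23 members, and lowest from 20000 to 29999, with 12. The last stretch, from 60000, is not filled to its end. The densest stretch of 1000 numbers held 8 members, from Oeu009818.1 to Oeu010770.1. Whether close numbers mean neighbouring places in the genome is not given in the sources used here.

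**Figure D4:**
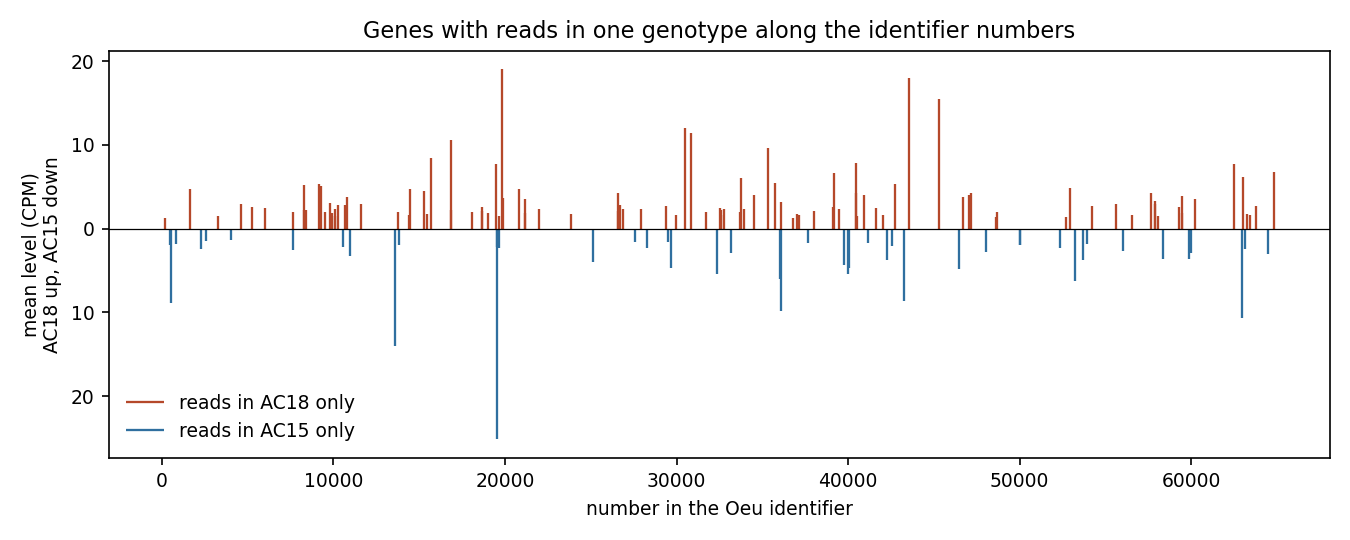
Mean level (CPM) of each gene along the number in its identifier, in AC18 for genes with reads in AC18 only (upward) and in AC15 for genes with reads in AC15 only (downward, 46 genes). The 104 upward lines cover the range from 164 to 64843 with no long run; the widest step between them is 4020 numbers.

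No member had another member at the next number. This rested on single libraries: chosen without AC15 replicate 1, AC15 replicate 2 or AC18 replicate 1, the group held 6, 2 and 4 genes with another at the next number, and chosen without any 1 of the other libraries it held 0. Allowing a step of up to 3 numbers gave 2 pairs, and a step of up to 5 gave 4 pairs, or 8 of the 104 members (7.69%). A step of up to 10 added none. With a step of up to 20 there were 17 members (16.3%) in 8 runs, the longest of 3. Among the 46 genes with reads in AC15 only, 0 were at the next number, 2 (4.35%) were within 5 and 4 (8.70%) within 10 or 20. A larger group over the same numbers lies closer together, so these shares are not to be compared with those of the 104 members. The closest member and AC15-only gene were Oeu007627.1 and Oeu007649.1, 22 numbers apart.

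The closest pair was Oeu040487.1 and Oeu040489.1, which occupy adjacent rows because the number between them is not in the table. Oeu040487.1 had 76, 63 and 54 counts in AC18 replicates 1, 2 and 3. Oeu040489.1 had 29, 40 and 37. The order of the libraries differed between them, since replicate 1 was the highest for the first and the lowest for the second. Both rows beside the pair were read in both genotypes: Oeu040486.2 had 85, 72 and 79 counts in AC18 and 53, 45 and 53 in AC15, and Oeu040490.1 had 18, 22 and 18 in AC18 and 26, 19 and 21 in AC15. The lack of reads in AC15 thus ended at once on either side. Oeu040507.1, a member with 10, 16 and 12 counts, followed 18 numbers later, after several genes well read in both genotypes.

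The second pair was Oeu010071.1, with 13, 11 and 12 counts in AC18, and Oeu010074.1, with 14, 22 and 22. The genes between them, Oeu010072.1 and Oeu010073.1, had 1 count each over the AC18 libraries and 0 in AC15, so 4 numbers in a row had no AC15 read. The row after the pair, Oeu010075.4, had 23, 14 and 17 counts in AC18 and 7, 8 and 6 in AC15. Between Oeu026576.1 (27, 40 and 40 counts in AC18) and Oeu026580.1 (17, 16 and 20), the single row in the table, Oeu026579.1, had 82, 89 and 94 counts in AC18 and 86, 137 and 86 in AC15. That pair was thus interrupted by a gene read in both genotypes. Between Oeu032595.1 (15, 12 and 28 counts in AC18) and Oeu032599.1 (12, 13 and 17), Oeu032596.1 had no count in any library and Oeu032598.1 had 22, 28 and 19 counts in AC18 and 0, 1 and 0 in AC15. Only that 1 read kept Oeu032598.1 from being a member, and with it the pair would be a run of 3.

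Genes beside a member were not used by the rule, and they are described here from the same fit over all genes. Of the 163 genes at the number just before or after a member, 77 were tested. Of these, 35 (45.5%) had a higher level in AC18 by the adjusted p, where 29.2% of the 23922 tested genes outside the group did. For AC15 the number was 21 (27.3%), where the background was 30.2%. Within 3 numbers, 81 of 216 tested genes (37.5%) passed in favour of AC18 and 63 (29.2%) in favour of AC15. Within 10 numbers, 243 of 739 (32.9%) passed in favour of AC18 and 221 (29.9%) in favour of AC15. The share called higher in AC18 was thus farthest above the background at the next number and came close to it within 10, while the share called higher in AC15 stayed near its own background. Beside the AC15-only genes, of 36 tested genes at the next number, 14 (38.9%) passed in favour of AC18 and 10 (27.8%) in favour of AC15. Neighbouring genes are not independent, and no test was run on these shares.

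Large differences were also counted. A fitted difference of at least 2-fold higher in AC18 was called for 17 of the 77 tested genes at the next number (22.1%), where the background was 10.9%, and the same size higher in AC15 for 8 (10.4%), where the background was 9.03%. A difference of at least 16-fold higher in AC18 was called for 6 of the 77 (7.79%) and for 7 of the 216 within 3 numbers (3.24%), against 1.04% of the tested genes outside the group. In the other direction 0 of the 216 reached 16-fold by edgeR's test, with either the adjusted or the unadjusted p under 0.05, where the background was 0.648%. DESeq2, which tested 280 of these genes, called 18 (6.43%) at least 16-fold higher in AC18 and 2 (0.714%) at least 16-fold higher in AC15. Its shares over the 29947 genes it tested outside the group were 1.86% and 1.1%. Neighbours of the AC15-only genes had large differences in both directions: of the 36 tested at the next number, 8 (22.2%) were called at least 2-fold higher in AC18 and 6 (16.7%) at least 2-fold higher in AC15. A difference of at least 16-fold was called in favour of AC18 for 2 of the 36 (5.56%) and in favour of AC15 for 3 (8.33%). Within 3 numbers these calls were 2 (2.02%) and 4 (4.04%) of 99. The share at least 2-fold higher in AC18 was thus 22.1% beside the members and 22.2% beside the AC15-only genes. The 7 neighbours of members called at least 16-fold higher in AC18 by edgeR stood beside 7 different members.

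**Figure D5:**
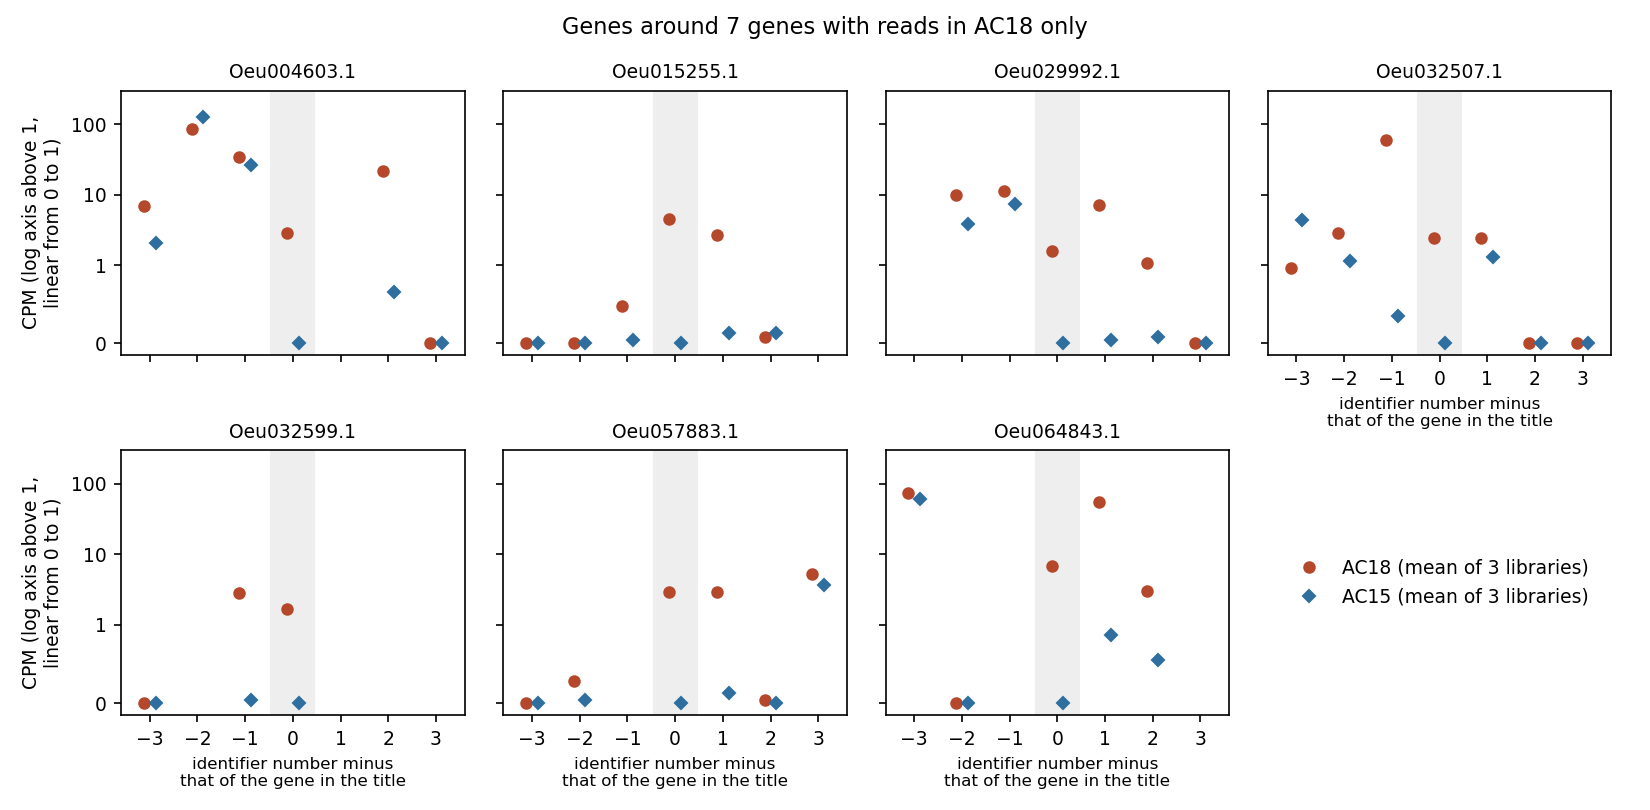
Mean CPM in AC18 (circles) and AC15 (diamonds), 3 libraries each, of the genes within 3 numbers of 7 members (grey band, AC15 at 0) that have a gene at least 16-fold higher in AC18 beside them; the axis is linear from 0 to 1 and logarithmic above. Numbers without a point are not in the table. In each panel a second gene has its circle far above its diamond, and in most panels other genes have circle and diamond close together.

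These 7 neighbours were named after their values had been seen, and several were read far more strongly than the member beside them. Oeu032506.1, next to the member Oeu032507.1, had 431, 521 and 500 counts in AC18 and 2, 3 and 3 in AC15. Its level was 58.8 ± 5.60 CPM in AC18 and 0.347 ± 0.0694 CPM in AC15 (SD, n = 3 each), a log2 fold change of 7.34 ± 0.21 (SE; edgeR adjusted p = 6.4e-23). The member itself had 20, 15 and 25 counts in AC18. For Oeu032506.1 the libraries of the genotypes did not come near each other, and for the member the rule set them apart. The genes on either side also had more reads in AC18. Oeu032505.1 had 24, 25 and 20 counts in AC18 and 7, 8 and 11 in AC15 (log2 fold change 1.29, edgeR adjusted p = 0.0016), and Oeu032508.2 had 12, 24 and 24 in AC18 and 9, 10 and 11 in AC15 (0.88, edgeR adjusted p = 0.029). Oeu032505.1, Oeu032506.1 and Oeu032508.2 were thus all called higher in AC18, and the call of the member among them was fixed by the rule. Before them the direction turned: Oeu032504.1 had 9, 5 and 10 counts in AC18 and 26, 53 and 23 in AC15.

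Oeu064844.1, next to the member Oeu064843.1, had 415, 435 and 542 counts in AC18 and 6, 8 and 6 in AC15. Its log2 fold change was 5.99 ± 0.17 (SE; edgeR adjusted p = 1.6e-22). The member had 46, 66 and 55 counts in AC18, and the next gene, Oeu064845.1, had 20, 20 and 37 in AC18 and 4, 6 and 3 in AC15. Oeu064844.1 and Oeu064845.1 were thus both lower in AC15, at low but recorded counts, while the member was at 0 by the rule. Oeu064840.1, 3 numbers before the member, had 571, 616 and 631 counts in AC18 and 458, 510 and 457 in AC15, a log2 fold change of 0.25 ± 0.07 (SE).

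Around Oeu029992.1, a member with 13, 16 and 10 counts in AC18, every recorded gene within 2 numbers had more counts in each AC18 library than in any AC15 library. Oeu029993.1 had 66, 55 and 54 counts in AC18 and 1, 0 and 0 in AC15, a count ratio of 163 with a 95% exact binomial interval of 28.8 to 6466. This gene too was picked by its counts, so the interval describes counting error and does not hold its 95% coverage. Oeu029994.1 had 5, 14 and 7 counts in AC18 and 1, 1 and 0 in AC15. On the other side Oeu029990.1 had 79, 82 and 84 in AC18 and 37, 24 and 27 in AC15, and Oeu029991.1 had 86, 103 and 93 in AC18 and 63, 29 and 73 in AC15. The difference was thus near complete at the number after the member and partial before it, and at the member itself the rule set it.

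Of the other members of this kind, Oeu004603.1, whose own call was fixed by the rule, lay between rows called higher in AC18. Oeu004602.1, just before it, had 240, 280 and 335 counts in AC18 and 189, 225 and 190 in AC15 (log2 fold change 0.39, edgeR adjusted p = 0.0013). Oeu004605.1, 2 numbers after the member Oeu004603.1 (29, 23 and 19 counts in AC18), had 181, 174 and 172 counts in AC18 and 5, 4 and 6 in AC15, while Oeu004601.1, 2 numbers before the member, was higher in AC15, with 675, 672 and 775 counts in AC18 and 928, 1048 and 884 in AC15. Oeu015256.1, after the member Oeu015255.1 (35, 40 and 37 counts in AC18), had 28, 14 and 24 counts in AC18 and 1, 1 and 1 in AC15. Oeu057884.3, after the member Oeu057883.1 (22, 26 and 24 counts in AC18), had 25, 21 and 26 counts in AC18 and 1, 2 and 0 in AC15. The rows adjoining each of the last 2 pairs had few or no reads in either genotype. The remaining neighbour of this kind was Oeu032598.1, described above.

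The rows adjoining the members were also sorted by their AC15 counts. The rows just before and after a member were both read with at least 10 counts over the AC15 libraries for 23 members, and 1 of the rows was for 50. For the other 31 members neither row reached 10 AC15 counts. The same was not counted for all rows of the table, so nothing particular to the members is read from these numbers. Of the 475 genes within 3 numbers of a member, 151 (31.8%) had no count in any library, against 33.1% of the whole table. A count in AC18 with none in AC15 was recorded for 39 of the 475 (8.21%) and for 5.17% of the table, and a count in AC15 with none in AC18 for 21 (4.42%) and for 3.08% of the table.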

How the data were processed

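Poly(A)-selected, strand-specific libraries from stems were sequenced, per the labels' protocols. The authors deposited 1 table of estimated counts, whole numbers per identifier and library. FastQC, Trimmomatic and kallisto 0.46.1 are named in the submitters' processing notes. The transcript reference, the rounding and any strand setting are not stated by the sources at hand, so reads of near-identical or antisense genes may have been divided between identifiers. The counts were used as deposited. Differences were tested over the whole table with edgeR 4.0.16 in R 4.3.3 (robust quasi-likelihood, TMM, genotype as the single factor, filterByExpr with a minimum count of 10 and a minimum total of 15) and Benjamini-Hochberg adjustment. DESeq2 1.42.0 was an alternative. The fit was tested on simulated data. CPM uses TMM-scaled totals. A count of 0 in all libraries of a genotype was bounded at 3 summed counts, and intervals are exact binomial at 95%; both cover counting error only.

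The members, the lists and the tests were chosen with earlier results of these data known. The genes named were taken by rule: the 10 with the highest AC18 mean, those at the next number or in the longest run with steps of up to 3, the 3 lowest and 3 highest in SD over mean, and 3 just inside and 3 just outside each limit. Genes beside members were named after their values were seen. Libraries with equal replicate numbers were not treated as pairs: the deviations from the genotype means correlated at -0.0258, -0.0145 and -0.0426 for replicates 1, 2 and 3, and nothing in the labels ties them.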

Additional observations from a re-analysis of the deposited data

How the results depend on the processing

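The group is set by its limits. With at least 5 counts in each AC18 library there were 185 genes, with a median level of 1.66 CPM, a median SD of 21.2% of the mean, and 4 genes with another at the next number. With at least 20 counts there were 42 genes, at 4.84 CPM and 16.1%. With at most 2 counts summed over AC15 there were 210 genes, at 2.81 CPM and 17.3%, and 8 had another at the next number. Choosing without each library in turn gave 108 to 135 genes, 2.43 to 2.75 CPM, 15.1% to 18.7%, and 0 to 6 genes with another at the next number. The values with all libraries were 104 genes, 2.61 CPM, 19.3% and 0. Runs held 4, 8 and 8 members with steps of up to 3, 5 and 10. Fewer libraries make a count of 0 easier to reach and an SD from 2 libraries is smaller, by construction.

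The members called higher in AC18 were 96 with all libraries and 98 to 104 without each library. They were 96 with a replicate block, whose median log2 fold change was 7.47, and same-numbered libraries did not deviate together. DESeq2 and the fit without a filter tested and called all 104. Neighbours within 1, 3 and 10 numbers called higher in AC18 were 35, 81 and 243, and those called higher in AC15 were 21, 63 and 221, as wider windows hold more genes. All 231 values of the 21 named genes that were tested kept their direction and call, which their choice made all but certain.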

Other observations

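The single AC15 reads that kept 65 genes out of the group were spread over the AC15 libraries: 27 came from replicate 1, 19 from replicate 2 and 19 from replicate 3. Replicate 2 was the deepest AC15 library and held no more of them than replicate 3. Oeu057877.1, 6 numbers before the member Oeu057883.1, had counts of 99, 100 and 118 in AC18 against 3, 2 and 4 in AC15. It was chosen after its values had been seen. Likewise chosen, Oeu026582.1, 2 numbers after the member Oeu026580.1, gave 7 counts in every AC18 library and 0 throughout AC15, below the limit of the rule.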
